A study of Mus musculus with 13 samples.

Results

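Transcripts of p53 feedback and cell-cycle arrest genes were compared between livers of streptozotocin-treated and control mice. The set held 10 genes, namely Trp53, Mdm2, Mdm4, Ppm1d, Ccng1, Zmat3, Cdkn1a, Btg2, Plk2 and Gtse1, and 8 of them were measured among the 19938 genes named on the arrays. Each gene was read from the probe set that the platform annotation gives to that symbol alone, chosen by its highest mean over all 13 arrays. Every measured gene of the set had 1 such probe set, so no other probe set was discarded. The annotation used here lists none for Trp53, and the 1 probe set listed for Cdkn1a also carries the symbol 4930567H12Rik, so neither gene has a value of its own. The 10 genes were picked from the p53 pathway with the streptozotocin results of these arrays already known. Their counts, differences and p-values therefore describe where each gene stands in the fit over all genes and are no independent support for a change of the pathway.

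The p53 protein is a transcription factor that is stabilised after DNA damage and other stresses, and it then induces genes that halt the cell cycle, repair DNA or kill the cell. Several of its targets act back on it. Mdm2 is the ubiquitin ligase that marks p53 for degradation, Mdm4 is its relative that blocks the activation domain of p53, and Ppm1d encodes the phosphatase Wip1, which reverses damage-induced phosphorylation. The arrest arm includes Cdkn1a, which encodes the CDK inhibitor p21, the antiproliferative gene Btg2, and the kinase gene Plk2.

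All mice were male C57BL/6N wild type, and livers were taken at an age of 5 to 6 months. Streptozotocin (STZ), an alkylating glucose analogue that is toxic to pancreatic beta cells and induces type 1 diabetes, was injected intraperitoneally at 65 mg/kg on each of 5 consecutive days into 6 mice aged 10 to 16 weeks, and 7 control mice were mock-injected with citrate buffer. Livers were collected 9 to 11 weeks later, and the total RNA of each was hybridised to 1 Affymetrix mouse gene array. The series design text describes the controls by a standard diet instead of a mock injection. The labels call the arrays biological replicates, 1 to 7 for controls and 1 to 6 for STZ mice. They also carry a second number, 1 to 7 for controls and 29 to 32, 40 and 42 for STZ replicates 1 to 6 in that order. They give no batch, so a batch that follows the second numbers cannot be told apart from the treatment. STZ reaches organs other than the pancreas, and effects of the drug and of the diabetes it causes cannot be told apart in this design.

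Over all genes the arrays resembled each other closely, with Pearson correlations across genes of 0.986 to 0.997 within a group and 0.982 to 0.994 between groups. Over the 19938 genes the log2 difference between STZ and control had a median of -0.0063. In limma with Benjamini-Hochberg adjustment over all genes, 1014 genes (5.09%) were higher and 805 (4.04%) lower in STZ livers at an adjusted p under 0.05. Array medians were 6.22 to 6.31, and the number of arrays limits the precision.

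Sequence was printed for promoters in which a p53 motif was found, because p53 binding near the start site is one way its targets are recognised. RefSeq start-site windows of the GRCm38.p6 assembly, each running from 250 bases before to 50 bases after an annotated start, were matched by symbol for 9 of the 10 genes (12 windows), and Zmat3 was not matched. Both strands were searched for the p53 consensus half-site and for a full site, defined as a pair of half-sites with 0 to 13 bases between them, the core C and G of each kept, and at most 1 mismatch in all. A full site was present in 0.627% of all 32851 windows and in 3 of the 12 windows of the set, those of Ccng1, Gtse1 and Cdkn1a. Gtse1 and Cdkn1a each had another window with no half-site or full site. The half-site was present in 8.36% of all windows and in windows of Trp53, Mdm2, Ppm1d, Ccng1, Cdkn1a and Gtse1, and in the last 3 it overlaps the full site. The motif was looked for because the pathway was known, so a match is a description of these letters and does not show binding.

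The first 250 bases of the windows of Ccng1 (chr11:40755287-40755536, minus strand), Mdm2 (chr10:117710759-117711008, minus strand) and Ppm1d (chr11:85311004-85311253, plus strand) are shown 5′ to 3′, with the p53 site or half-site in capitals. They show a gene with a full site and higher transcript levels, and a gene with 1 half-site and higher levels. The third is a gene with 1 half-site whose levels did not pass the test. Btg2 and Plk2, with the largest log2 differences of the set (1.20 and 1.11), had no half-site or full site in their windows, nor had Mdm4. Gtse1, with a full site, had the smallest difference of the genes that passed (0.33). A relation between sites and transcript levels was not tested.

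Ccng1: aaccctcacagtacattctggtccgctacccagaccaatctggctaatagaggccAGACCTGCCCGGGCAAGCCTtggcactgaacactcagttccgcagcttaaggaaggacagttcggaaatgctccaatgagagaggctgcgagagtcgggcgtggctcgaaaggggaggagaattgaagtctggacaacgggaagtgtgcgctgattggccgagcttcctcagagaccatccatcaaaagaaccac

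Mdm2: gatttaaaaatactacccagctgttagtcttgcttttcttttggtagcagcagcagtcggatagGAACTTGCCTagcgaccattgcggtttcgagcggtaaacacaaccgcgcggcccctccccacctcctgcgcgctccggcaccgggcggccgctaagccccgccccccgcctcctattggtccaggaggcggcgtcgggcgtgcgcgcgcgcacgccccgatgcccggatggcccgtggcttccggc

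Ppm1d: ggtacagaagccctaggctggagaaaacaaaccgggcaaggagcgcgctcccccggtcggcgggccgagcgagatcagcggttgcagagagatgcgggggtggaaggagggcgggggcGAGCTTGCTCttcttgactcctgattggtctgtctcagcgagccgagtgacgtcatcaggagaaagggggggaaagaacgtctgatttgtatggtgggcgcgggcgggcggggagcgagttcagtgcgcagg

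The full site of Ccng1 runs from base -195 to base -176 relative to the start and has 1 mismatch and no spacer. The first of 2 overlapping full sites of Gtse1, at chr15:85859945-85859964 on the plus strand, reads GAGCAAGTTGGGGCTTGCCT, also with 1 mismatch and no spacer, and overlaps the downstream of its 2 annotated starts. Other motifs were counted in the same windows on both strands. The CRE half-site TGACG (20.8% of all windows) was in those of Mdm2, Ppm1d, Btg2 and Plk2. The FoxO motif GTAAACA (3.65%) was in that of Mdm2, the E-box CACGTG (7.15%) in that of Trp53, and CCAAT (37.4%) in those of 6 genes. The cell-cycle element TTTGAA (17.9%) was in none of the 12 windows.

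Of the 8 measured genes, 6 rose in STZ livers and none fell, against 5.09% of all genes called higher and 4.04% called lower. The 6 were Mdm2, Ccng1, Zmat3, Btg2, Plk2 and Gtse1, and Mdm4 and Ppm1d did not pass the test. In the same 6 genes every STZ array was above every control array, which held for 2.30% of all genes in that direction. The median difference of the 8 genes was 0.91 on the log2 scale.

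**Figure D1:**
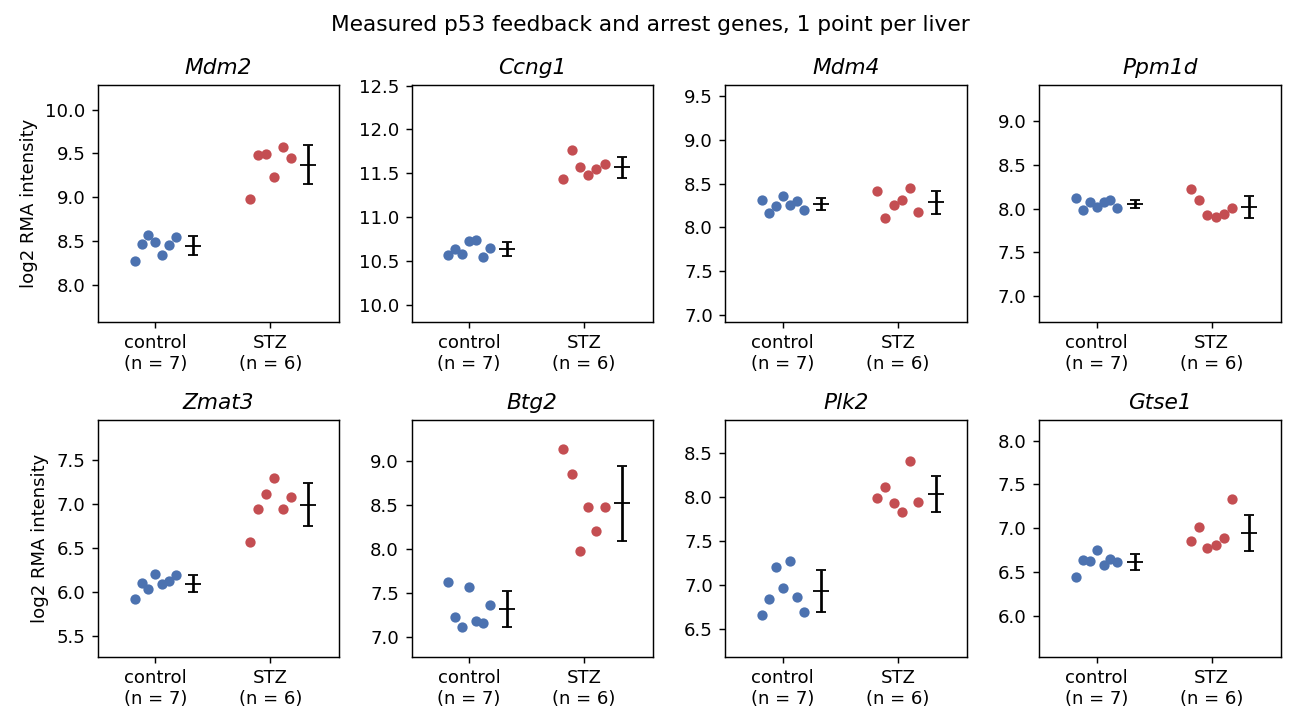
Log2 RMA intensity (y axis, a span of the same size in each panel) of the 8 measured genes in 7 control and 6 STZ livers; each point is 1 liver, and the bar is the group mean with the SD. Points of the groups are apart for Mdm2, Ccng1, Zmat3, Btg2 and Plk2, close for Gtse1, and mixed for Mdm4 and Ppm1d.

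Among the genes that act back on p53, Mdm2 ranged from 8.27 to 8.57 (median 8.47) in the control arrays on the log2 scale and from 8.98 to 9.58 (median 9.47) in the STZ arrays. All 6 STZ livers lay above the controls, with a gap of 0.41 between the groups, and STZ replicate 1 was the lowest of them. The mean was 8.45 ± 0.11 (SD, n = 7) in controls and 9.37 ± 0.22 (SD, n = 6) in STZ livers. The difference of 0.92 ± 0.09 (SE of the fit) is a 1.89-fold higher signal, with an adjusted p of 6.39e-06 in limma.

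Ccng1 encodes cyclin G1, a p53 target that recruits a phosphatase subunit to Mdm2. It ranged from 10.55 to 10.74 (median 10.63) in controls and from 11.43 to 11.77 (median 11.56) in STZ livers, the widest gap between groups in the set at 0.69. Its difference of 0.93 ± 0.06 (SE), 1.91-fold, had an adjusted p of 2.27e-07 in limma. By p-value Ccng1 stood at place 2 of the 19938 genes, whereas by size of the increase it stood at place 81.

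Mdm4 and Ppm1d, which also restrain p53, showed overlapping groups. Mdm4 ranged from 8.17 to 8.36 (median 8.26) in controls and from 8.10 to 8.44 (median 8.29) in STZ livers, with a difference of 0.02 ± 0.06 (SE, adjusted p = 0.897 in limma). Ppm1d ranged from 7.99 to 8.12 (median 8.07) in controls and from 7.90 to 8.22 (median 7.98) in STZ livers, with a difference of -0.04 ± 0.06 (SE, adjusted p = 0.805 in limma). The 95% intervals of the differences were -0.11 to 0.15 for Mdm4 and -0.16 to 0.08 for Ppm1d, so a small difference in either direction remains compatible with these arrays. Without STZ replicate 1 or without STZ replicate 5 the Mdm4 difference changed sign, to -0.0039 and -0.0093. For both genes the STZ livers were more spread than the controls (SD 0.13 against 0.07 for Mdm4, and 0.12 against 0.05 for Ppm1d), a difference in spread that was not tested.

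Zmat3, a zinc finger RNA-binding protein induced by p53, ranged from 5.92 to 6.20 (median 6.10) in controls and from 6.57 to 7.30 (median 7.02) in STZ livers. The groups were 0.37 apart, and STZ replicate 1 was again the lowest STZ liver and STZ replicate 4 the highest. The difference was 0.90 ± 0.09 (SE), 1.86-fold, with an adjusted p of 1.36e-05 in limma.

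**Figure D2:**
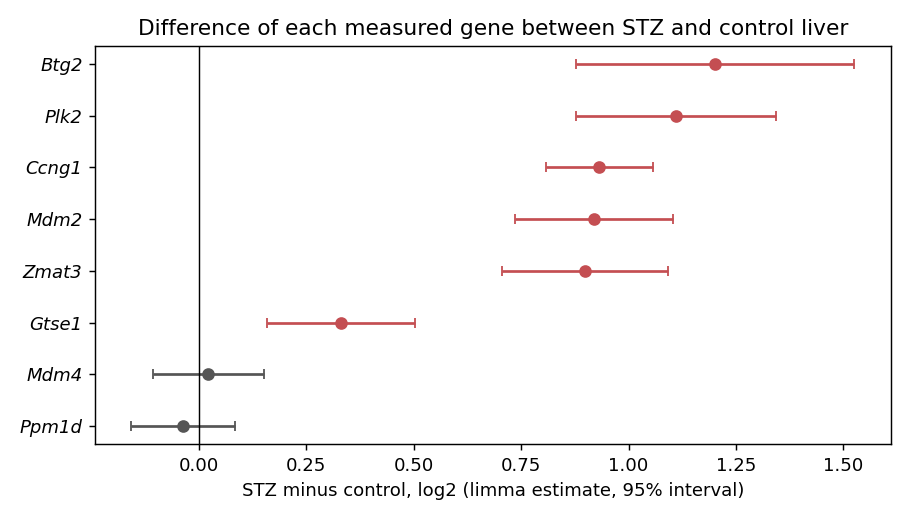
STZ minus control difference on the log2 scale (x axis) of each measured gene, with the 95% interval of the limma fit (7 control and 6 STZ livers); red marks an adjusted p under 0.05. Intervals of 6 genes lie above 0, with Btg2 at 1.20 and Gtse1 at 0.33, and those of Mdm4 and Ppm1d span 0.

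In the arrest arm, Btg2, which lowers cyclin D1 transcription and promotes mRNA deadenylation, had the largest difference of the set. It ranged from 7.11 to 7.62 (median 7.22) in controls and from 7.97 to 9.13 (median 8.47) in STZ livers. STZ replicates 1 and 2 were the highest, at 9.13 and 8.86, and STZ replicate 3 was the lowest. Its difference of 1.20 ± 0.15 (SE), 2.30-fold, had an adjusted p of 0.000118 in limma and the largest standard error of the 8 genes.

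Plk2, a polo-like kinase of the G1 and S phases, ranged from 6.65 to 7.27 (median 6.86) in controls and from 7.82 to 8.41 (median 7.97) in STZ livers. The groups were 0.56 apart, and STZ replicate 5 was the highest liver. Its difference was 1.11 ± 0.11 (SE), 2.16-fold, with an adjusted p of 1.08e-05 in limma.

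Gtse1, a microtubule-associated protein of G2 that moves p53 out of the nucleus, had the smallest difference of the genes that passed. It ranged from 6.44 to 6.75 (median 6.63) in controls and from 6.77 to 7.34 (median 6.87) in STZ livers, so the groups were apart by only 0.02. STZ replicate 6 was the highest at 7.34. The difference of 0.33 ± 0.08 (SE), 1.26-fold, had an adjusted p of 0.0158 in limma. It was 0.25 (adjusted p = 0.0186) without STZ replicate 6.

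**Figure D3:**
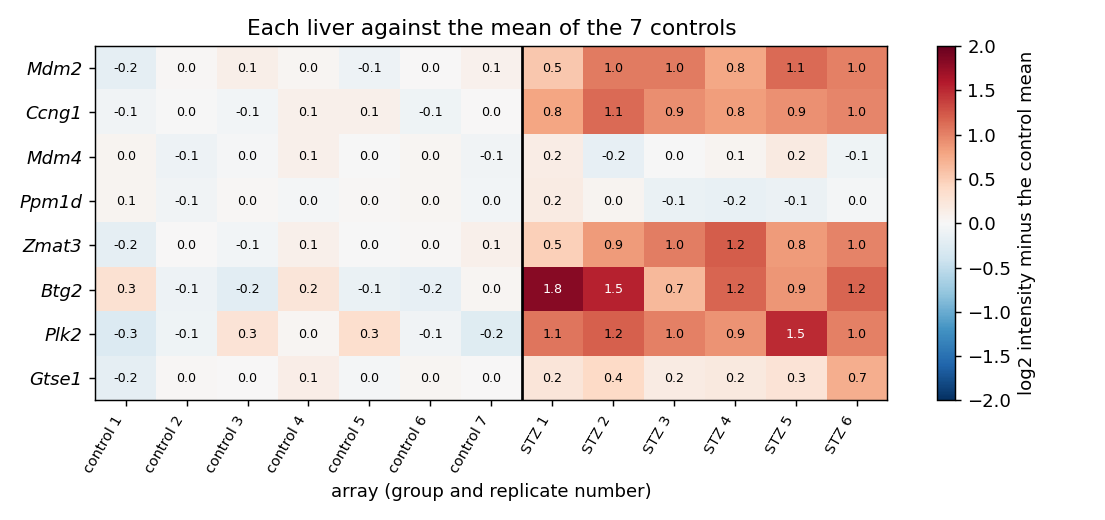
Log2 intensity of each measured gene (rows) in each liver (columns, group and replicate number) minus the mean of the 7 controls; red is higher and blue lower, and the number in each cell is the rounded value. STZ replicate 1 holds the largest Btg2 value and the smallest Mdm2, Ccng1 and Zmat3 values of the 6 STZ livers.

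The STZ livers did not rank alike across the genes that rose. STZ replicate 1 was the lowest of the 6 for Mdm2, Ccng1 and Zmat3 and the highest for Btg2. STZ replicate 5 was the highest for Mdm2 and Plk2, STZ replicate 2 for Ccng1, STZ replicate 4 for Zmat3 and STZ replicate 6 for Gtse1. All of these values were above every control.

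Covariation was examined against Mdm2 within each group, because Cdkn1a, the gene first chosen for this, had no value of its own. Over the 14 pairs (7 genes in 2 groups), Pearson's r lay between -0.70 and 0.70, the smallest exact permutation p (2-sided) was 0.0972, and the smallest after Benjamini-Hochberg adjustment over the pairs was 0.538. That pair was Ccng1 in the 6 STZ livers, with r of 0.67 and Spearman's rho of 0.49 (exact permutation p = 0.356, adjusted 0.778). Without STZ replicates 1 and 4, the arrays farthest from the median of Mdm2, this r was -0.47, so the relation rests on those livers. For Btg2 in STZ livers r was -0.70 (exact permutation p = 0.158, adjusted 0.538) and rho was -0.77 (exact permutation p = 0.103, adjusted 0.778), with r of -0.38 without the same arrays.

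The genes whose deviations from the group means were most like those of Mdm2 over the 13 arrays were Ugt2b35 (r = 0.94), Saa4 (0.90), Sgpp1 (0.87), Cyp2c50 (0.85) and Senp3 (0.85), out of 19937 genes compared. When each array was left out in turn, each had its lowest r without STZ replicate 1, at 0.87, 0.75, 0.75, 0.63 and 0.68 in the same order. In these 13 cases the genes were among the 5 most alike in 13, 11, 8, 2 and 3. Of the 5 genes, Saa4, a constitutive serum amyloid A gene, fell in STZ livers (-0.43 ± 0.11 (SE), adjusted p = 0.0179 in limma), and the others did not pass. Without STZ replicate 1, Ugt2b35 (0.32, adjusted p = 0.00543 in limma) and Cyp2c50 (0.26, adjusted p = 0.0267) were higher. They passed in no other of the 13 leave-one-out fits. By likeness to Mdm2 the other genes of the set lay between 0.49 for Zmat3 and -0.64 for Btg2. Without STZ replicate 1, r was -0.23 for Zmat3, 0.22 for Ccng1, -0.05 for Ppm1d, -0.09 for Mdm4 and -0.33 for Btg2. Without STZ replicate 4 it was 0.81 for Zmat3, and without STZ replicate 5 it was 0.14 for Plk2 and -0.73 for Mdm4. These values describe likeness across shared arrays and were not tested.

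Other genes of the pathway were taken from lists whose members were chosen by function, with earlier results of these arrays known. Each count stands beside the 5.09% of all genes called higher and the 4.04% called lower. The counts are a description and no independent support for a change of the pathway. Of 19 measured p53 targets with a role in cell death, 6 rose and 1 fell, with a median difference of 0.19. Phlda3, an inhibitor of Akt, rose by 1.98 ± 0.08 (SE, adjusted p = 5.04e-10 in limma), Trp53inp1 by 0.97 ± 0.09 and the death receptor Tnfrsf10b by 0.91 ± 0.08. Aen (0.63 ± 0.06), Apaf1 (0.42 ± 0.08) and Ei24 (0.19 ± 0.05) were also higher. Perp, a desmosomal p53 target, fell by 0.68 ± 0.10 on the log2 scale. The death receptor Fas (0.20 ± 0.07) and the BH3-only gene Bbc3 (0.20 ± 0.07) did not pass.

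Of 27 measured genes in a list of p53 targets in DNA repair, metabolism and some other roles, 11 rose and none fell, with a median of 0.16. Eda2r, a receptor of the TNF receptor family, rose by 1.93 ± 0.13, the sestrin Sesn2 by 0.89 ± 0.08, the translesion polymerase Polk by 0.89 ± 0.07 and Dglucy by 0.75 ± 0.07. The remaining 7 were Ddit4, Ephx1, Sat1, Dcxr, Psrc1, Abhd4 and Ercc5, with differences of 0.16 to 0.49. Rrm2b, a ribonucleotide reductase subunit, had a difference of 0.16 ± 0.07 and did not pass.

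**Figure D4:**
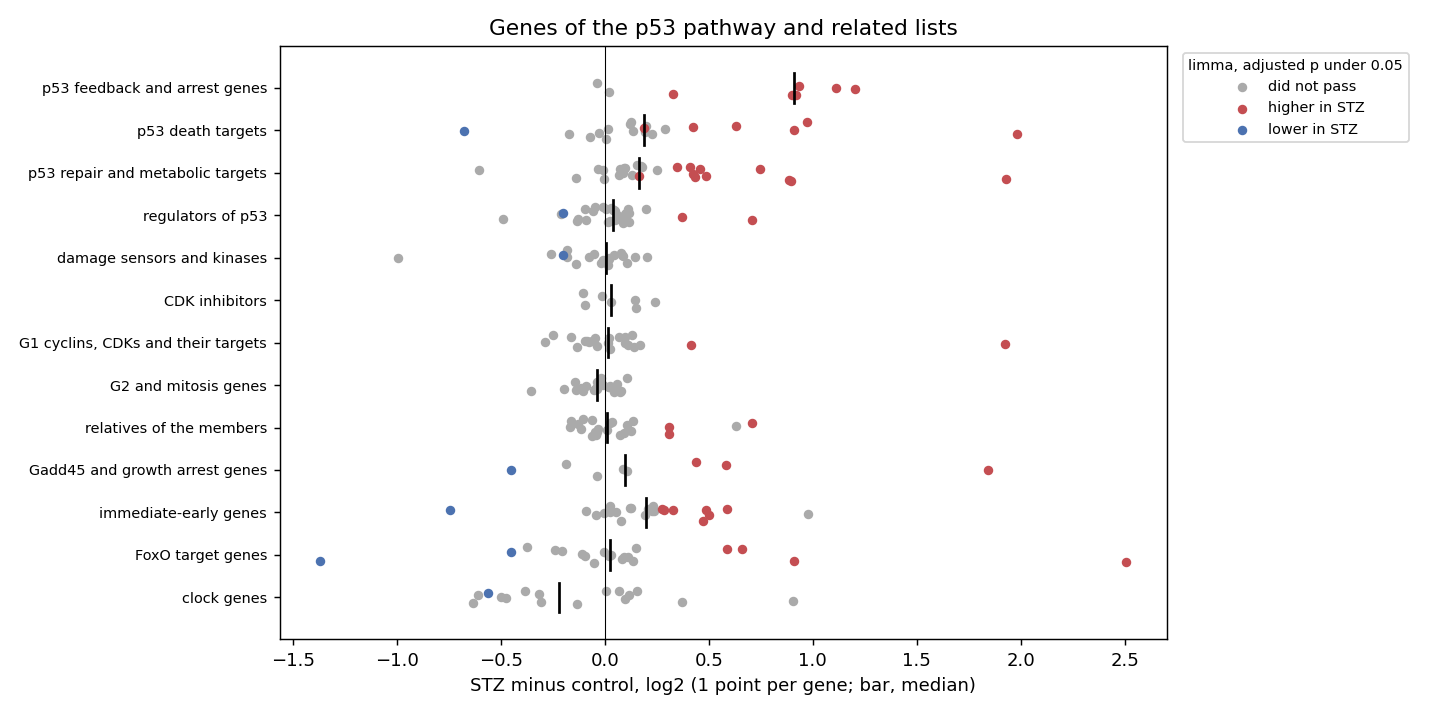
STZ minus control difference on the log2 scale (x axis) of each measured gene of 12 lists and of the p53 feedback and arrest genes; 1 point is 1 gene, red and blue mark genes higher and lower in STZ at an adjusted p under 0.05 in limma, grey the others, and the black bar is the list median. The median is 0.91 for the feedback and arrest genes and -0.04 for the G2 and mitosis genes.

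Calls among genes that control p53 itself and among the kinases upstream of it were near the shares of all genes. Of 30 regulators of p53, 2 rose, the ubiquitin ligase genes Rchy1 (0.37 ± 0.06) and Trim24 (0.71 ± 0.15), and 1 fell, the ligase gene Cop1 (-0.20 ± 0.06, adjusted p = 0.0346 in limma). Leaving out 1 array ended the Cop1 call in 10 of 13 cases (all but those without control replicate 2, control replicate 4 or STZ replicate 5), where its adjusted p reached 0.0854. Of 20 damage sensors and kinases none rose and 1 fell, the Mre11 complex gene Nbn (-0.20 ± 0.05). With the mean of all its probe sets the Nbn difference was -0.02 and did not pass. The count of damage genes that fell was 4 without STZ replicate 5 and 2 without control replicate 3, STZ replicate 3 or STZ replicate 4.

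Cell-cycle genes on which the arrest arm acts were taken in 2 lists. Of 22 genes of G1 cyclins, CDKs and their targets, 2 rose and none fell. Ccnd1, the cyclin that activates Cdk4 and Cdk6, rose by 1.93 ± 0.22, with control livers at 8.30 ± 0.13 (SD, n = 7) and STZ livers at 10.23 ± 0.69 (SD, n = 6), and Ccnd3 rose by 0.42 ± 0.07. Of 22 G2 and mitosis genes none passed in limma, 1 had an unadjusted p under 0.05, and none passed in limma with trend and robust variance. That gene was Ccnf (-0.36 ± 0.12, adjusted p = 0.0785 in limma), which passed without STZ replicate 5 (-0.45, adjusted p = 0.00758). The list median was -0.04. The mean level of the list was 5.78 to 6.37 in controls and 5.77 to 6.29 in STZ livers, near the array medians of 6.22 to 6.31. Some of its genes varied widely within a group, such as Ccnb2 from 6.34 to 7.89 in controls and from 6.52 to 7.90 in STZ livers. The lack of calls in this list therefore does not show equal levels.

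None of the 7 other CDK inhibitors passed in limma or in limma with trend and robust variance, and 2 had an unadjusted p under 0.05. These were Cdkn2c (0.24 ± 0.08, adjusted p = 0.0587 in limma), which encodes p18, and Cdkn1b (0.15 ± 0.05), which encodes p27. Cdkn2c passed without STZ replicate 3 (adjusted p = 0.0327) or without STZ replicate 5 (0.0246), and 1 gene of the list passed without STZ replicate 6. Of 23 relatives of the set by family, 3 rose, namely Zfp385a (0.71 ± 0.10), Tob1 (0.31 ± 0.08) and Btg1 (0.31 ± 0.09), which encodes the closest relative of Btg2. The Btg1 call was lost without control replicate 2, 5, 6 or 7 and without STZ replicate 1 or 2, with adjusted p up to 0.0884. With only the 4 STZ arrays numbered 29 to 32, Tob1 did not pass (adjusted p = 0.0660). Of 8 Gadd45 and growth arrest genes, 3 rose and 1 fell. Gadd45g (1.84 ± 0.23), Gadd45b (0.58 ± 0.11) and Gas6 (0.44 ± 0.09) were higher, and Gadd45a, a p53 target, fell by 0.45 ± 0.08 on the log2 scale.

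Btg2 and Plk2 are also induced as immediate-early genes, and several genes of the set respond to signals other than p53. Of 24 immediate-early genes, 7 rose, among them Ccn2 (0.59 ± 0.13), Ier3 (0.50 ± 0.11) and Klf6 (0.49 ± 0.11), and Klf10 fell by 0.74 ± 0.17 on the log2 scale. The count of 7 was 4 without control replicate 5, without STZ replicate 2 or without STZ replicate 6. Of 20 FoxO target genes, 4 rose and 2 fell, with Igfbp1 at 2.51 ± 0.34 and Bcl6 at -1.37 ± 0.33. With a variance trend and robust fitting in limma the Bcl6 call was lost (adjusted p = 0.0535), and the count of FoxO targets that fell was 3 without control replicate 3. Of 16 clock genes, Bhlhe40 fell by 0.56 ± 0.14 on the log2 scale, a call lost without STZ replicate 4 (adjusted p = 0.0532) or STZ replicate 6 (0.0503). The list median was -0.22. Several clock genes varied widely within a group, such as Ciart from 6.05 to 10.08 in controls and from 7.11 to 9.73 in STZ livers. The lack of other clock calls therefore does not show equal levels.

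Whole liver was measured, and a change in the number of cells of a type cannot be told apart from a change in RNA per cell. Hepatocyte markers had mean levels of 13.39 to 13.45 in controls and 13.36 to 13.40 in STZ livers, on the log2 scale. These levels lie near the highest value on any array, 14.14, and a compression of differences at the top of the scale was not tested. Similar means therefore do not show equal hepatocyte content. Of the 5 measured, Cps1 was higher (0.16 ± 0.04) with every STZ array above the controls, Ttr was lower (-0.18 ± 0.05) with every STZ array below them, and Apoa1 was lower (-0.23 ± 0.06). The Cps1 call was lost without control replicate 4, 5 or 7 and without STZ replicate 1 or 4, and the Ttr call was lost on leaving out any 1 array other than STZ replicate 3 or STZ replicate 5. Of 8 Kupffer cell and macrophage markers, 4 were higher and none lower, and their mean level ranged from 8.49 to 8.91 in controls and from 8.64 to 9.28 in STZ livers, so the groups overlapped. The 4 were Cd5l, Cd68, Vsig4 and Clec4f. Their count was 1 without STZ replicate 6, 2 without control replicate 7, STZ replicate 1 or STZ replicate 4, and 6 without control replicate 3 or STZ replicate 3. Of 7 T and NK cell markers, Cd4 (-0.23 ± 0.06) was lower, and of 3 measured B cell markers, Cd79b (-0.40 ± 0.10) was lower. None of these lymphocyte markers was higher. The Cd4 call was lost without control replicate 1, 3, 5 or 6 and without STZ replicate 3 or 4. Of 6 sinusoidal endothelial genes, Lyve1 (0.50 ± 0.11) was higher and the other 5 gave no call. The stellate cell list of 6 genes went both ways. In it Lrat was lower (-0.47 ± 0.08) with every STZ array below the controls, and Rgs5, also a mural cell gene, was higher (0.46 ± 0.11). The other 4 stellate cell genes gave no call. The 4 cholangiocyte genes gave no call in the same fit, with 1 at an unadjusted p under 0.05, and 1 passed without control replicate 1, control replicate 4 or STZ replicate 3. No neutrophil gene was higher, and the 5 neutrophil genes gave no call in limma with or without trend and robust variance, with 2 at an unadjusted p under 0.05. The arrays give no zero level, and the part of cell composition in the differences of the p53 genes was not tested.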

How the data were processed

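Liver RNA of 7 control and 6 STZ mice was measured on 1 array per mouse. The authors deposited a log2 intensity for each of 35556 probe sets. Per the submitters' processing notes, the tools were RMA and Affymetrix Expression Console 1.2. RMA equalises the arrays, so a change in total RNA would not be seen, and dim differences are compressed. No genome build or annotation version is given in the sources used here. Of the probe sets, 21789 had 1 symbol in the platform annotation, 1621 had several and 12146 had none listed. The brightest probe set per gene left 19938 genes.

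The groups were tested with limma 3.58.1 (R 4.3.3, lmFit and eBayes, 11 residual degrees of freedom before moderation, 2-sided), with Benjamini-Hochberg adjustment over all genes and a threshold of 0.05. The fit was tested on simulated data. Exact permutation tests and motif searches used Python 3.11.15. The members and the 20 lists were chosen with earlier results of these data known. All members were named, and in each pathway list up to 4 genes that passed with the largest differences, or the smallest p where none passed. Also named were the 5 genes most like Mdm2. Further list genes were named after their values were seen, to complete small counts or as well-known targets that did not pass (Fas, Bbc3, Rrm2b). Planned analyses of Cdkn1a were not possible and used Mdm2, a choice made after seeing the data.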

Additional observations from a re-analysis of the deposited data

Results flagged for a closer look

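The probe set listed under both 4930567H12Rik and Cdkn1a was left out of the comparisons because its signal cannot be assigned to either gene. It differed by 3.23 on the log2 scale between STZ and control livers, from 6.74 ± 0.35 (SD, n = 7) to 9.97 ± 0.31 (SD, n = 6), a 9.39-fold higher signal. It ranged from 6.20 to 7.18 in controls and from 9.47 to 10.30 in STZ livers, so the groups did not overlap.

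Arrays were screened by Dixon's criterion, the gap to the next value over the range of the group, with cut-offs of 0.568 for 7 arrays and 0.625 for 6. No array of the 8 measured feedback and arrest genes passed its cut-off. Gtse1 in STZ replicate 6 (7.34, the next 7.01) stayed below it. The screen took 45 genes in 2 groups each (90 groups). These were the 8 measured members, the pathway-list genes picked by the naming rule and the 5 genes most like Mdm2. Other genes of the text, such as the cell type markers, were not screened. In the screen 4 arrays lay far from the rest of their group, and chance flags about 1 group in 20. They were Cop1 in STZ replicate 5 (8.40, the next 8.17), Gas6 in control replicate 3 (8.44, the next 8.75), Irs2 in control replicate 2 (7.77, the next 7.40) and Sgpp1 in control replicate 1 (9.89, the next 9.99).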

How the results depend on the processing

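The calls of Mdm2, Ccng1, Zmat3, Btg2, Plk2 and Gtse1 were kept in every alternative that tested them, with adjusted p of at most 0.037 (Gtse1) in limma. Zmat3 was not tested among genes above the median level, where 5 members were higher. The alternatives were trend and robust variance, quantile normalization, median centring, the mean of all probe sets, only the STZ arrays numbered 29 to 32, and each array left out. Exact permutation over 1716 assignments gave 0.000583 for each of the 6, the smallest p it allows. The groups of these 6 genes do not overlap, so this p restates that separation and is no further support. When 1 array was left out, the difference ranged from -0.0093 to 0.0589 for Mdm4 and from -0.0623 to 0.0273 for Sgpp1. The median difference of all genes was 0.0007 after quantile normalization and -0.0013 after median centring. Correlations and likeness to Cdkn1a were not run, because no probe set carries its symbol alone. Replicate numbers are shared by the groups in the labels, but same-numbered livers did not deviate together (correlations of -0.09 to 0.19, highest for the own number in 1 of 6). With the replicate block 732 genes were higher and 524 lower, against 1014 and 805, and the block kept all 6 member calls (Gtse1 adjusted p = 0.0355). Counts in the fixed lists moved by over 1.5 times in 88 of 800 comparisons, for example from 4 to 0 macrophage markers with the block and from 1 to 4 lower damage genes without STZ replicate 5.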
